A study of Rattus norvegicus with 6 samples.

Results

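The DNA methylation and polycomb genes are 10 genes of rat pancreatic islets, chosen by symbol from a table of 18625 named genes: the DNA methyltransferases Dnmt1, Dnmt3a and Dnmt3b, the methylation adaptor Uhrf1, the 5-methylcytosine oxidases Tet1, Tet2 and Tet3, and Ezh1, Ezh2 and Eed of the polycomb repressive complex PRC2. All 10 were found and all 10 passed the filter on low values. Total RNA was sequenced from 3 libraries of islets, small organs of hormone-producing cells within the pancreas, taken after birth and labelled neonatal, and from 3 libraries of islets taken at embryonic day 19 (E19) and labelled fetal. The age of the postnatal group is stated in conflicting ways: 2 weeks in each title, but weeks 2, 3 and 4 in the age field of replicates 1, 2 and 3. The titles define the groups. The sources used here do not name the strain, the sex, any treatment or the animals behind a library, so every p-value rests on the spread of these samples alone, and that spread may be technical.

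In mammals, methyl groups on cytosines of CpG pairs silence promoters and repeats. Dnmt3a and Dnmt3b place them, Dnmt1 copies them to the new strand after replication when Uhrf1 brings it to sites methylated on the old strand alone, and the Tet enzymes oxidise them, the first step of their removal. PRC2 methylates lysine 27 of histone H3 through Ezh2 or its relative Ezh1, bound to Eed and Suz12, and PRC1 binds this mark and adds ubiquitin to histone H2A. In mouse islets Dnmt3a silences genes of other metabolic programmes as beta cells mature, and Ezh2 restrains the cell cycle inhibitor locus Cdkn2a, so that its loss slows beta cell proliferation.

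Expression is given as scaled CPM, the usual depth-normalised read count (CPM) with the library size adjusted for composition by TMM factors. The libraries held 28174506 to 29515446 reads in the postnatal group and 26051449 to 37819935 reads in the E19 group, and a member had between 186 and 8059 reads in a library. Islet endocrine markers were present in every library, and the summed level of 14 of them took 4.22% to 11.4% of reads in postnatal and 0.268% to 0.695% in E19 libraries. The 14 acinar markers, of the enzyme-secreting cells around islets, took 18.0% to 35.6% and 5.82% to 7.79%, and none of either list was at 0 in any library. Postnatal replicate 1 stood apart by its acinar share of 35.6%, and E19 replicate 2 by 11 hepatocyte markers at 0.904% of reads, against at most 0.0619% in the other E19 libraries. The 10 erythroid markers took 0.0666% to 0.159% of reads in postnatal and 0.323% to 1.14% in E19 libraries, with at most 2 at 0, and the 8 duct markers 0.0403% to 0.0440% and 0.0766% to 0.0987%, with none at 0. In such bulk samples, fewer cells of a type and less RNA per cell cannot be told apart, and the part of cell mixture in the differences was not tested.

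After birth, 3 of the 10 members were higher (Ezh1, Tet2 and Tet1), 5 were lower (Uhrf1, Ezh2, Dnmt3b, Dnmt1 and Eed) and 2 did not pass (Dnmt3a and Tet3), by limma at a Benjamini-Hochberg adjusted p under 0.05. Of all 12926 genes tested, 30% were higher and 33.1% lower, 63.1% in all, and 8 of the 10 members is a share of 80%. In 9 of the 10 members the 3 postnatal values did not overlap with the 3 E19 values, as in 70% of all genes tested. Tet3 was the exception.

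**Figure D1:**
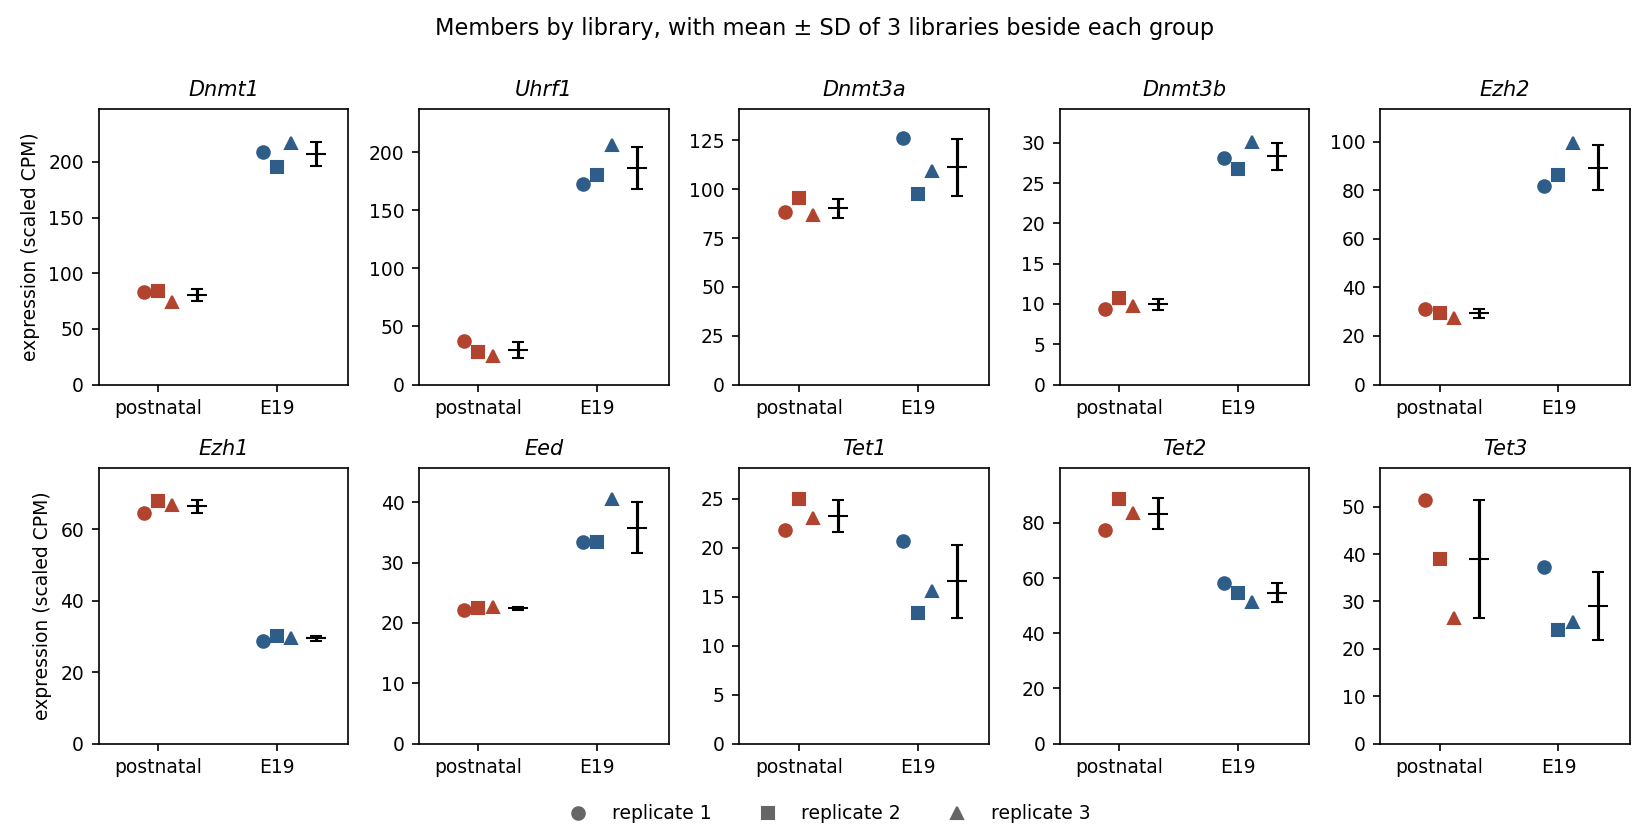
Expression of the 10 members in scaled CPM (y axes, from 0) in 3 postnatal and 3 E19 libraries; each point is a library, its shape the replicate, and the bar beside each group is the mean ± SD. Dnmt1, Uhrf1, Dnmt3b, Ezh2 and Eed lie lower and Ezh1, Tet1 and Tet2 higher in all 3 postnatal libraries, while Tet3 overlaps between the groups.

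The maintenance pair fell. Uhrf1, which reads newly replicated methylated DNA and recruits Dnmt1, stood at 37.1, 27.6 and 24.4 scaled CPM in postnatal replicates 1, 2 and 3, against 172, 180 and 207 in E19 replicates 1, 2 and 3. Every postnatal library was far below every E19 library. The log2 fold change was -2.63 ± 0.16 (SE; adjusted p = 2.45e-05), a 6.17-fold lower level and the largest change of the 10 members; 0.588% of the genes tested had a lower log2 fold change. Dnmt1, the maintenance methyltransferase, stood at 83.3, 83.9 and 74.1 scaled CPM in the postnatal libraries, against 209, 195 and 217 in the E19 libraries. Its groups were narrow and well apart (log2 fold change -1.35 ± 0.10; adjusted p = 4.30e-05; 2.56-fold lower). Within each library the log2 ratio of Uhrf1 to Dnmt1 averaged -1.43 ± 0.24 in the postnatal and -0.15 ± 0.11 in the E19 libraries (SD, n = 3 each), so Uhrf1 fell further than Dnmt1.

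The de novo methyltransferases differed in size of change. Dnmt3b stood at 9.42, 10.7 and 9.73 scaled CPM in the postnatal libraries, against 28.1, 26.7 and 30.1 in the E19 libraries, and fell by 1.42 ± 0.11 on the log2 scale (adjusted p = 5.57e-05). Dnmt3a stood at 88.4, 95.5 and 86.6 scaled CPM after birth, against 126, 97.6 and 110 at E19. The highest postnatal value, 95.5, lay just under the lowest E19 value, 97.6. Its log2 fold change of -0.29 ± 0.12 missed the threshold (adjusted p = 0.0566; 95% interval before adjustment -0.56 to -0.02). Without E19 replicate 2 it was -0.38 and passed (adjusted p = 0.0383). The log2 ratio of Dnmt3a to Dnmt3b within a library was 3.06 ± 0.04 after birth and 1.93 ± 0.17 at E19, and that of Dnmt3a to Dnmt1 0.16 ± 0.07 and -0.90 ± 0.15, with no overlap for either.

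The partners of DNA methylation moved down with the maintenance pair. Of 17 listed genes 15 were tested, and 13 fell, none rose and 2 did not pass. The share called was 86.7%, against 63.1% of all genes. The median log2 fold change was -0.67, against -0.03 for all genes tested. Rescaled without the 20 highest genes, 10 fell and none rose (median -0.43, against 0.20 for all genes). Pcna, 1 of those listed, is also counted among the S phase genes below. Pclaf, a clamp-binding protein that Uhrf1 modifies to recruit Dnmt1, stood at 8.71, 7.88 and 6.90 scaled CPM in the postnatal libraries, against 62.6, 71.8 and 96.3 in the E19 libraries. It fell by 3.12 ± 0.17 on the log2 scale, further than any member. Cdca7, a replication-linked chromatin factor that activates the remodeller Hells, fell to 13.7 ± 1.82 scaled CPM, against 62.0 ± 1.73 at E19, and Hells, required for methylation of repeats in mice, to 18.0 ± 2.54, against 72.0 ± 9.05 (mean ± SD, n = 3 each). Dnmt3l, the partner of the de novo enzymes in germ cells, lay under the filter, with 1 to 6 reads in a library.

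Ezh2, the methyltransferase subunit of PRC2 in dividing cells, fell with these genes. It stood at 31.2, 29.3 and 27.5 scaled CPM in the postnatal libraries, against 81.9, 86.1 and 99.6 in the E19 libraries. Every postnatal library was far below every E19 library (log2 fold change -1.57 ± 0.11; adjusted p = 3.73e-05; 2.97-fold lower). Eed, the subunit that binds the trimethyl mark and stimulates the enzyme, stood at 22.2, 22.5 and 22.6 scaled CPM after birth, against 33.4, 33.3 and 40.6 at E19. Its postnatal values were nearly equal, and it fell by 0.65 ± 0.11 on the log2 scale (adjusted p = 0.00155), less than Ezh2. The log2 ratio of Ezh2 to Eed was 0.37 ± 0.10 in postnatal and 1.29 ± 0.04 in E19 libraries.

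Ezh1, the relative of Ezh2 that predominates in resting cells, went the other way. It stood at 64.4, 67.9 and 66.8 scaled CPM in the postnatal libraries, against 28.8, 30.2 and 29.5 in the E19 libraries. Both groups were tight, and the groups were well apart (log2 fold change 1.14 ± 0.09; adjusted p = 4.61e-05; 2.21-fold higher). The log2 ratio of Ezh1 to Ezh2 within a library was 1.02, 1.19 and 1.25 after birth, against -1.48, -1.48 and -1.72 at E19. The ratio thus changed sign between the groups, by 2.71 on the log2 scale or 6.56-fold. Its absolute value also depends on transcript lengths, which were not used here.

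The S phase genes give the setting for the 3 replication-linked members, Dnmt1, Uhrf1 and Ezh2. All 22 tested genes of the list, the DNA replication machinery and its regulators, fell, against 33.1% of all genes. Their median log2 fold change was -1.89, with a range of -2.48 to -0.86. Cdc6, a loader of the replicative helicase, fell to 7.71 ± 1.39 scaled CPM after birth, against 47.2 ± 4.11 at E19 (log2 fold change -2.48 ± 0.14). Ccne1, encoding cyclin E1, had a log2 fold change of -2.26 ± 0.12 and Mcm5, a helicase subunit, one of -2.25 ± 0.16. Measured against the mean log2 level of the 22 genes in the same library, Uhrf1 was lower after birth (0.37 ± 0.13 in postnatal and 1.18 ± 0.02 in E19 libraries), while Dnmt1 was higher (1.80 ± 0.12 and 1.33 ± 0.12). Ezh2 was also higher on this measure (0.38 ± 0.09 and 0.12 ± 0.01), and none of these 3 ratios overlapped between the groups.

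Promoter sequences are shown for Uhrf1, Ezh2 and Dnmt1, the members set against the S phase genes above. Dnmt3b and Eed fell too and are not shown. RefSeq windows of 300 bases (250 before and 50 after an annotated start, build GRCr8) were matched for 8 members, with 15 windows in all; Dnmt3b and Ezh1 had no entry. The E2F words TTTCCCGC, TTTGGCGC, TTTCGCGC and TTTGCCGC, searched on both strands, were held by windows of 3 members, Dnmt1, Uhrf1 and Ezh2, 3 of the 8 matched member genes, and by those of 2.37% of all 27457 genes. The window of Eed, which also fell, held no E2F word, so the sequences shown are those of the members with such a word. Capitals mark E2F words and CCAAT, the box bound by the factor NF-Y, on either strand. The Uhrf1 stretch runs from -210 to -1 of its start 3 (chr9:1222976-1223185, plus strand), the Ezh2 stretches from -100 to -1 (chr4:77687184-77687283, minus strand) and from 1 to 30, and the Dnmt1 stretch from 4 to 33 past its start (chr8:27762809-27762838, minus strand).
Uhrf1 upstream: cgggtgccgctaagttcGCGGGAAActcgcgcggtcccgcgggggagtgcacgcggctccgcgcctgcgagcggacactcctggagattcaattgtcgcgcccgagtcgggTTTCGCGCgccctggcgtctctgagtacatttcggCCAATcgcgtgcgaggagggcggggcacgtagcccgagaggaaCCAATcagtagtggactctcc
Ezh2 upstream: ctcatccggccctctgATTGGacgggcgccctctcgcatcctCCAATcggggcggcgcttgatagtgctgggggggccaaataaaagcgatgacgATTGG
Ezh2 past the start: gctgctgcgTTTGGCGCtcggtccggtcgc
Dnmt1 past the start: ccctcCCAATTGGtttccgcgcGCGCGAAA

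The Uhrf1 window held an E2F word at -193 to -186 and another at -99 to -92, with CCAAT at -64 and -21. The Ezh2 window held an E2F word 10 bases past the start and 3 CCAAT matches before it. In Dnmt1 the E2F word lay at 26 to 33 past the start, after 2 overlapping CCAAT matches. CCAAT alone is common, being held by windows of 6 of the 8 members and of 39.6% of all genes. The cell cycle words TTTGAA and TTCGAA, held by windows of 20.96% of all genes, were not found in any member's window. Of 17 S phase genes with a window, 9 held an E2F word. These matches describe letters and not bound sites, and the other starts of Uhrf1 held no E2F word. The windows also differed in CpG pairs, from 3 in a Tet1 and 2 Tet3 windows to 39 in that of Tet2, against a median of 7 over all windows.

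**Figure D2:**
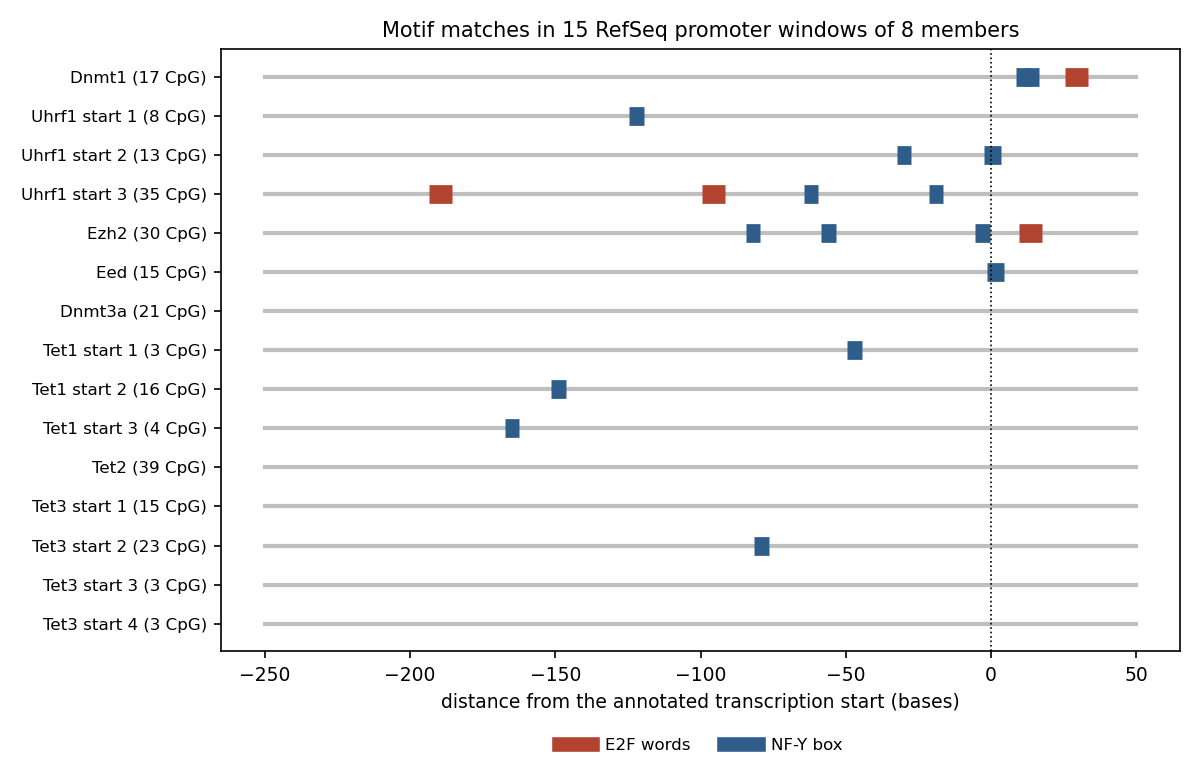
Matches of the E2F words and of CCAAT in 15 RefSeq promoter windows of 8 members, by distance in bases from the annotated start (x axis; the dotted line is the start), with the CpG pairs of each window in its label. E2F words lie in the windows of Dnmt1, Uhrf1 (start 3) and Ezh2, and in none of the other windows.

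Of the Tet genes, Tet2 and Tet1 rose and Tet3 did not pass. Tet2, whose protein lacks the CpG-binding domain of its relatives, stood at 77.6, 88.9 and 83.6 scaled CPM in the postnatal libraries, against 58.3, 54.6 and 51.3 in the E19 libraries. Every postnatal value was above every E19 value, and Tet2 rose by 0.60 ± 0.10 on the log2 scale (adjusted p = 0.00122; 1.51-fold). Tet1, known from embryonic stem cells, stood at 21.8, 25.0 and 23.0 scaled CPM after birth, against 20.7, 13.4 and 15.6 at E19. E19 replicate 1 lay close to the lowest postnatal library. Tet1 rose by 0.49 ± 0.16 on the log2 scale (adjusted p = 0.0316), but the call ended without postnatal replicate 2 (0.44; adjusted p = 0.101) or 3 (0.49; 0.0696) and without E19 replicate 2 (0.35; 0.106) or 3 (0.46; 0.0920).

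Tet3, the Tet gene of the zygote and of neurons, stood at 51.4, 39.0 and 26.5 scaled CPM in the postnatal libraries, against 37.2, 24.1 and 25.7 in the E19 libraries. The groups overlapped, and replicate 1 was highest in both. Its log2 fold change of 0.39 ± 0.25 did not pass (adjusted p = 0.208; 95% interval before adjustment -0.20 to 0.98), although it was 0.64 and passed without postnatal replicate 3 (adjusted p = 0.0421), and 0.17 without postnatal replicate 1. The log2 ratio of Tet2 to Tet1 was 1.80 ± 0.01 after birth and 1.69 ± 0.25 at E19, and that of Tet3 to Tet1 0.67 ± 0.51 and 0.77 ± 0.07, both with overlap.

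Genes that act after or beside the Tet enzymes split. Of 18 tested cofactors of active demethylation, 10 fell, 3 rose and 5 did not pass (median log2 fold change -0.43). The share called was 72.2%, against 63.1% of all genes. Those that fell were led by the base excision repair genes Apex1 (-1.74 ± 0.15), an endonuclease for abasic sites, and Neil3 (-1.55 ± 0.20), a DNA glycosylase of dividing cells. Tdg, the glycosylase that removes the oxidised bases, and Idh1 and Idh2, which make the co-substrate of the Tet enzymes, were lower too, with log2 fold changes of -1.09 ± 0.09, -1.24 ± 0.13 and -1.34 ± 0.20; these 3 were chosen for their roles after their values were seen. Gadd45b, a stress-induced gene linked with demethylation, rose, at 24.9, 57.3 and 71.7 scaled CPM after birth, against 12.8, 15.6 and 9.03 at E19 (1.86 ± 0.37). Cxxc4, a CpG-binding regulator of Tet2, rose by 1.20 ± 0.19.

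Methyl-CpG readers moved both ways: of 9 tested, 4 rose, 2 fell and 3 did not pass (median 0.41), 66.7% called, a share near the 63.1% of all genes. Zbtb4, a zinc finger reader, rose to 35.7 ± 3.59 scaled CPM, against 9.12 ± 1.21 at E19 (log2 fold change 1.86 ± 0.14). Mbd6 rose by 0.81 ± 0.22, a call that ended without postnatal replicate 2 (0.70; adjusted p = 0.0560) or E19 replicate 3 (0.71; 0.0570). Mbd3, a subunit of the NuRD remodelling complex, fell (-1.04 ± 0.11), as did Mbd4, a glycosylase that is also on the cofactor list (-0.65 ± 0.16).

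In the methyl donor cycle, which supplies S-adenosylmethionine, 8 of 19 tested genes fell, 3 rose and 8 did not pass (median -0.43), 57.9% called, under the share of all genes. Bhmt, which remakes methionine from betaine, fell to 2.43 ± 1.20 scaled CPM, against 33.4 ± 10.7 at E19 (log2 fold change -3.33 ± 0.30). E19 replicate 2, where the hepatocyte markers were high, held 44.1 scaled CPM of it. E19 replicates 1 and 3 held 22.8 and 33.3, with hepatocyte markers at 0.0492% and 0.0619% of reads. The part of liver cells in the level of Bhmt was not tested. Shmt1, a folate enzyme that also serves nucleotide synthesis, fell too (-2.29 ± 0.21). Mthfd2, the mitochondrial folate enzyme, rose by 0.63 ± 0.16. Mat1a, the methionine adenosyltransferase of liver, rose by 1.19 ± 0.40 with overlapping groups, and its call ended without postnatal replicate 1 (0.89; adjusted p = 0.0708) or 3 (1.17; 0.0731) and without E19 replicate 1 (0.92; 0.101) or 3 (1.11; 0.0941). The count that rose was 1 without postnatal replicate 1 and 1 without E19 replicate 3.

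**Figure D3:**
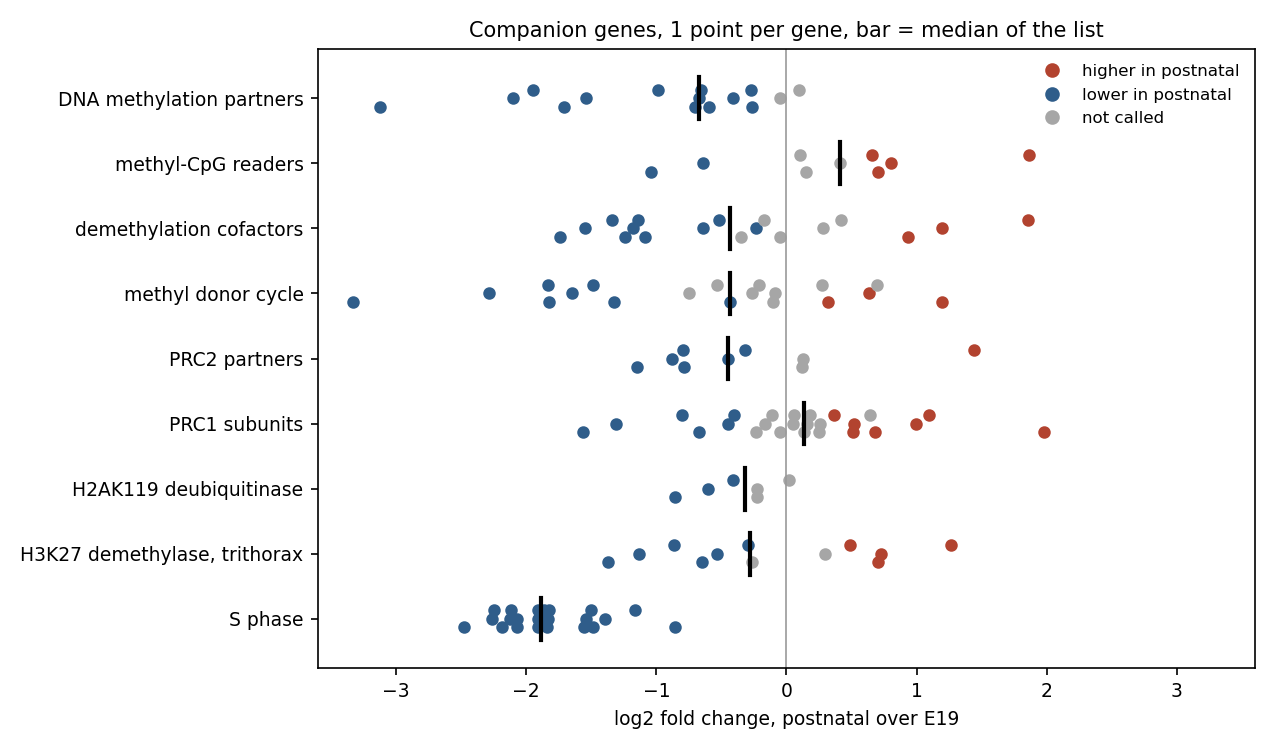
Log2 fold change, postnatal over E19 (x axis), of each tested gene in 9 companion lists (rows); colours give the limma call at an adjusted p under 0.05, and the black bar is the median of the list. All 22 S phase genes and 13 of 15 DNA methylation partners lie lower, while PRC1 subunits lie on both sides, 7 higher and 6 lower.

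Of 9 other tested core and accessory genes of PRC2, 6 fell, 1 rose and 2 did not pass (median -0.45), 77.8% called against 63.1% of all genes. The histone-binding subunit gene Rbbp7 fell to 201 ± 25.5 scaled CPM, against 447 ± 49.6 at E19 (-1.15 ± 0.14), and Mtf2, a subunit that brings PRC2 to CpG islands, to 26.4 ± 1.38, against 49.5 ± 4.84 (-0.88 ± 0.11). Phf1, a relative of Mtf2 in the same family of accessory subunits, rose to 37.2, 36.0 and 37.2 scaled CPM in the postnatal libraries, against 13.1, 13.8 and 11.8 at E19. Its log2 fold change was 1.45 ± 0.10 (adjusted p = 4.31e-05), opposite to Mtf2. Phf19, another accessory gene of the list, named after its values were seen, fell like Mtf2 (-0.79 ± 0.12). Suz12 is not analysed here.

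PRC1 subunit genes lay on both sides. Of 25 tested, 7 rose, 6 fell and 12 did not pass, 52.0% called against 63.1% of all genes, with a median of 0.14. The balance depended on the scaling between libraries. Rescaled without the 20 highest genes, 10 rose and 4 fell, against 39.1% and 24.8% of all genes. With CPM of all reads and no composition factor, 1 rose and 7 fell, against 13.8% and 39.6%. Among the Cbx genes, whose chromodomains bind the PRC2 mark, Cbx7 stood at 31.8, 38.3 and 43.4 scaled CPM in the postnatal libraries, against 9.09, 9.39 and 7.95 in the E19 libraries, and rose by 1.98 ± 0.14 (adjusted p = 4.27e-05). Cbx2 stood at 19.5, 15.2 and 14.1 scaled CPM after birth, against 53.0, 44.6 and 52.2 at E19, and fell by 1.57 ± 0.14 (adjusted p = 9.64e-05). The 2 genes thus exchanged order, Cbx7 being above Cbx2 in all 3 postnatal libraries and below it in all 3 E19 libraries, on a scale not corrected for length. Scml2, a polycomb protein of the sex comb on midleg family, fell by 1.31 ± 0.16.

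Of 6 tested genes of the H2A deubiquitinase group, which opposes PRC1, 3 fell and none rose (median -0.32). This is 50% called, under the 63.1% of all genes. The 3 that fell were Asxl3 (-0.86 ± 0.24), Foxk2 (-0.60 ± 0.11) and the catalytic subunit gene Bap1 (-0.41 ± 0.09). The call of Asxl3 ended without E19 replicate 1 (-0.69; adjusted p = 0.0558). Among 12 tested H3K27 demethylase and trithorax genes, which oppose PRC2, 4 rose, 6 fell and 2 did not pass (median -0.28). Of these genes 83.3% were called, above the share of all genes. Kdm6b, an H3K27 demethylase, rose to 22.3 ± 3.69 scaled CPM, against 9.56 ± 5.84 at E19 (1.26 ± 0.34), and Kmt2c, a lysine 4 methyltransferase of enhancers, by 0.73 ± 0.21. Both calls depended on single libraries: without E19 replicate 3 they were 1.05 (adjusted p = 0.0504) and 0.66 (0.0617), and Kmt2c was 0.64 without E19 replicate 2 (0.0535). Dpy30 and Ash2l, core subunits shared by the lysine 4 methyltransferases, fell (-1.37 ± 0.15 and -1.14 ± 0.11). The count that rose was 2 without E19 replicate 2 and 1 without E19 replicate 3.

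**Figure D4:**
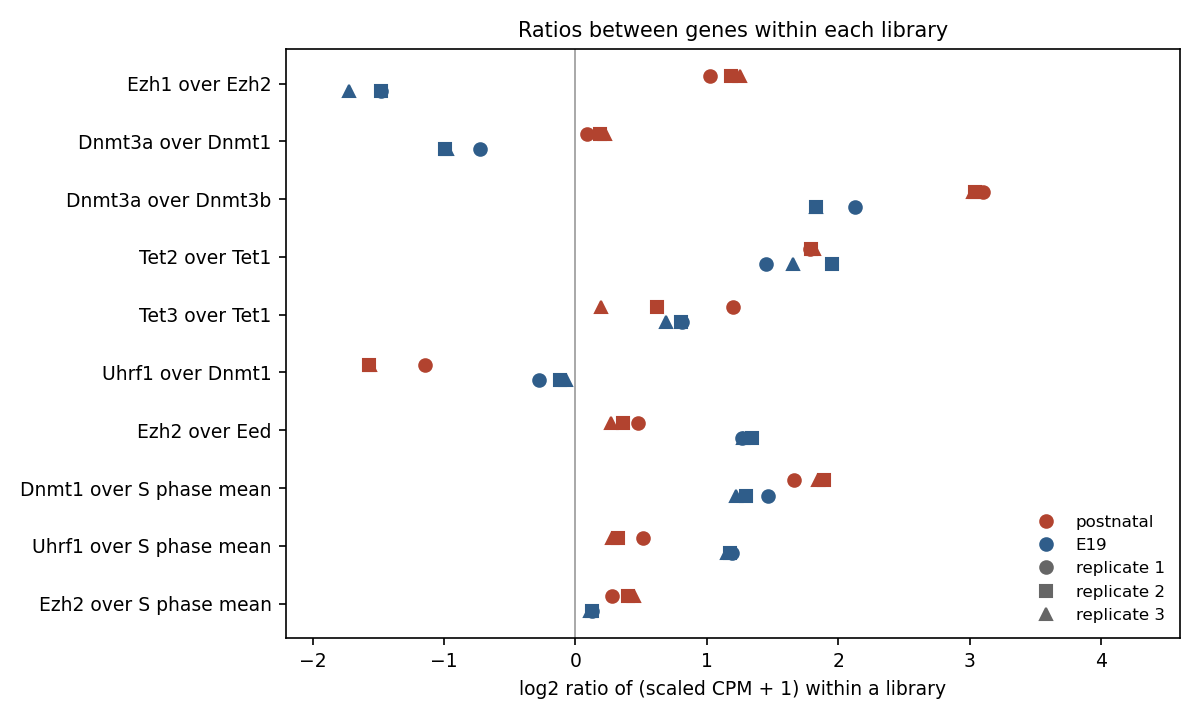
Log2 ratio of scaled CPM + 1 between genes within each library (x axis) for 10 ratios (rows), with postnatal points above E19 points and the shape giving the replicate; points of near-equal value cover each other. The ratio of Ezh1 to Ezh2 shows the widest gap between the groups (1.02 to 1.25 against -1.72 to -1.48), and those of Tet2 and Tet3 to Tet1 overlap.

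The scaling between libraries enters a ratio within a library only through the pseudocount of 1. Of the 10 ratios computed, 8 did not overlap between the groups, each with p = 0.1 in a two-sided exact permutation test, the smallest value that 3 libraries against 3 allow, and 0.125 after Benjamini-Hochberg adjustment. The ratios of Tet2 to Tet1 and of Tet3 to Tet1 gave p = 0.7 each in the same exact permutation test.

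The scaling between libraries bears on the size of the members' changes, and on the calls of Tet1, Tet2 and Dnmt3a. Rescaling without the 20 highest genes, mostly digestive enzymes and hormones, moved the median log2 fold change of all genes by 0.22 and gave 5065 genes higher and 3213 lower, against 3874 and 4278 as deposited. CPM of all reads, with no composition factor, moved that median by -0.33 and gave 1780 and 5088. The members kept their counts of 3 higher and 5 lower under the first, where 39.1% and 24.8% of all genes were called, and had 1 higher and 6 lower under the second, against 13.8% and 39.6%. With CPM of all reads the calls of Tet1 (0.15; adjusted p = 0.668) and Tet2 (0.25; adjusted p = 0.386) ended and Dnmt3a passed (-0.64; adjusted p = 0.0367). Relative to the median of all genes, over 5 scalings Ezh1 lay between 1.16 and 1.18, Tet2 between 0.61 and 0.64, Dnmt1 between -1.35 and -1.31, and Uhrf1 between -2.62 and -2.59 on the log2 scale. Apart from the pseudocount, a scaling shifts all genes of a library alike. These narrow ranges were therefore fixed in advance and do not test the calls. No member changed direction under any of the 21 alternatives. The filters, the robust trend, the replicate block and the labelled week leave a fold change as it is, so these could not reverse it.

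**Figure D5:**
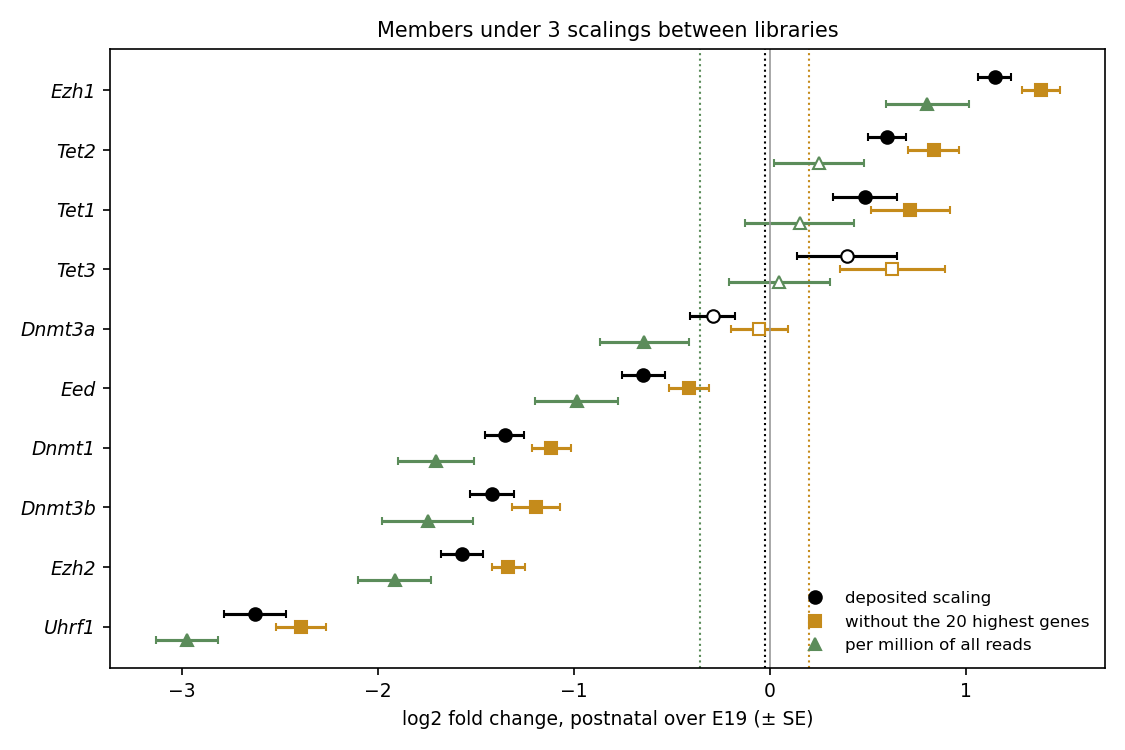
Log2 fold change, postnatal over E19, ± SE (x axis) of the 10 members under 3 scalings between libraries; filled symbols passed an adjusted p under 0.05, open symbols did not, and dotted lines mark the median of all tested genes under each scaling. Members shift together with the median of all genes, because a scaling moves all genes of a library alike. Tet1 and Tet2 lose their calls with CPM of all reads.

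Among 10688 genes with a mean of at least 5 scaled CPM, the profiles nearest to a member were found by the distance between centred log2 values over the 6 libraries. Uhrf1 lay nearest to Melk (log2 fold change -2.64 ± 0.18), a kinase gene of dividing cells, and to Cdc6. Dnmt1 lay nearest to Ttll12 and Knop1, Ezh2 to Tamm41 and Tma16, Dnmt3b to Smn1 and Zgrf1, and Eed to Arf6 and Tmco6. Ezh1 lay nearest to Zdhhc1 and to Timp2, an inhibitor of matrix-degrading proteases, Tet2 to Akap17a, and Tet1 to the clock gene Per2 and to Ca11. Dnmt3a lay nearest to Plxna1 and Sart3, and Tet3 to Zfp609. With 6 libraries in 2 groups, nearness mainly reflects a like difference between the groups.

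The age labels, weeks 2, 3 and 4 for postnatal replicates 1, 2 and 3, allow a slope over the labelled weeks with 1 library each, tested with limma against the spread that the 6 libraries leave; this test was added after the values were seen. Of all genes tested 0.00774% passed, and 1709 of 12926 had an unadjusted p under 0.05. No member passed, and 2 of 10 had such a p. The 2 were Uhrf1, with a log2 slope of -0.29 ± 0.09 per week (adjusted p = 0.286), and Tet3, with -0.46 ± 0.15 (adjusted p = 0.290). The other 8 slopes lay between -0.089 and 0.053 per week. In the same order of libraries acinar markers took 35.6%, 20.03% and 18.0% of reads and islet endocrine markers 4.22%, 6.74% and 11.4%, so labelled age and cell mixture cannot be told apart.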

How the data were processed

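Total RNA of freshly isolated rat islets was sequenced from stranded libraries depleted of ribosomal RNA (TruSeq, Ribo-Zero Gold), per the labels' protocols. The submitters' processing notes list TopHat2 2.0.8b and edgeR 3.30.3, with no role for either. Build, annotation, counter and strand setting: not given in the sources used here. Reads of overlapping or antisense genes may therefore be mixed. The authors deposited a normalized signal per gene with no unit named. All values (100%) were whole reads times 1 constant per library within 0.001 reads, and the constants matched recomputed TMM factors (0.677 to 1.25), so the deposited signal is called scaled CPM. A row without a gene name held at most 3.19e-05% of a library and was left out.

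Genes reaching a value of 1 in 3 or more libraries entered limma 3.58.1 on the log2(value + 1) scale (trend on, robust off, group only; R 4.3.3), two-sided, Benjamini-Hochberg over all genes; the scale understates changes of low genes. The fit was tested on simulated data in which far fewer genes changed than were called here, so that test does not cover the scaling of these libraries. Members and lists were chosen with earlier results of these data known. Named companions are the 3 largest called changes of each list and up to 2 called against its majority; others are said to be chosen later, and a few genes that the rule names are not reported here. Alternatives were pseudocounts, filters, scalings, a robust trend, a replicate block, the labelled week, libraries left out, and edgeR 4.0.16 and DESeq2 1.42.0 on the recovered read counts.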

Additional observations from a re-analysis of the deposited data

How the results depend on the processing

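The calls of Dnmt1, Dnmt3b, Uhrf1, Ezh1, Ezh2 and Eed held under all 21 alternatives, among them edgeR and DESeq2 on whole reads, which called the same 3 members higher and 5 lower. Of 12926 genes tested, edgeR called 3878 higher and 4251 lower, and DESeq2 4026 and 4283. The call of Tet1 ended under 7 and that of Tet2 under 1 alternative, and those of Dnmt3a and Tet3 began under 2 and 1. Members higher were 1 with CPM of all reads, and 2 to 3 when 1 library was left out; members lower were 5 to 6. Without both E19 replicate 2 and postnatal replicate 1, 2 members were higher and 5 lower, against 3251 and 3950 of 12205 genes tested. When 1 library was left out, all genes called ranged from 6496 of 12474 tested (without postnatal replicate 2) to 8044 of 12507 (without postnatal replicate 1). Between 2863 and 3600 genes were then higher and between 3518 and 4454 lower. Called companion genes ranged from 89 to 103. Deviations of same-numbered libraries from their group means correlated at r = -0.21, 0.10 and -0.25, within the -0.36 to 0.43 of the other pairs. With so few libraries, this cannot tell whether same-numbered libraries share a batch. In limma with the replicate block, 2 members were higher and 5 lower, the call of Tet1 ending (adjusted p = 0.0646). Of 12926 genes tested, 3563 were then higher and 3863 lower. With equal groups this block cannot change a mean ratio difference, such as 2.71 for Ezh1 to Ezh2, so it gives no check on the size of the ratios. With a pseudocount of 5 the ratio differences were 2.50 for Ezh1 to Ezh2, 0.87 for Dnmt3a to Dnmt3b, 0.30 for Dnmt1 and 0.15 for Ezh2 to the S phase mean. Leaving out 1 library gave ratio differences of 2.63 to 2.78 for Ezh1 to Ezh2, 1.01 to 1.15 for Dnmt3a to Dnmt1, 1.08 to 1.22 for Dnmt3a to Dnmt3b, -1.41 to -1.20 for Uhrf1 to Dnmt1, -0.98 to -0.87 for Ezh2 to Eed, and 0.42 to 0.54, -0.87 to -0.75 and 0.22 to 0.31 for Dnmt1, Uhrf1 and Ezh2 to the S phase mean. Those of Tet2 to Tet1 (-0.00722 to 0.24) and Tet3 to Tet1 (-0.36 to 0.14) changed sign, without E19 replicate 1 and without postnatal replicate 3. The cause of these shifts was not tested. After rescaling without the 20 highest genes, 7 methyl-CpG readers, 5 methyl donor genes and 3 PRC2 genes rose, 1 deubiquitinase gene fell, and the calls of Asxl3 and Bap1 ended (adjusted p = 0.0687 and 0.102). With CPM of all reads, 1 PRC1 gene, 1 reader, 1 methyl donor gene and 0 trithorax genes rose, and Mbd6, Kmt2c, Kdm6b and Mthfd2 were no longer called.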

Other observations

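Germline genes that promoter methylation silences in mouse somatic tissue had low levels in both groups. Of 12 matched genes 10 lay under the filter, at up to 1.14 scaled CPM in the postnatal and up to 0.522 in the E19 libraries. The other 2 were tested, and both reached the filter value of 1 in all 3 postnatal but not in all 3 E19 libraries. The filter thus favoured genes higher after birth, and with a filter value of 5 neither was tested. Sycp3, a component of meiotic chromosome axes, stood at 1.92, 2.34 and 1.98 scaled CPM after birth, against 0.982, 1.06 and 0.956 at E19, and was higher by 0.62 ± 0.14 on the log2 scale (adjusted p = 0.00628). Tdrd1, of the piRNA pathway, stood at 1.72, 2.68 and 1.98, against 1.11, 1.16 and 0.462, and was higher by 0.72 ± 0.21, a call that ended without postnatal replicate 2 (0.60; adjusted p = 0.0734) or E19 replicate 3 (0.54; 0.0606). With CPM of all reads both calls ended, at 0.42 for Sycp3 (adjusted p = 0.150) and 0.53 for Tdrd1 (adjusted p = 0.145).

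Of 9 tested genes linked with DNA methylation, polycomb or beta cell maturation, 5 fell and 4 rose (median -0.62). The share called was 100%, against 63.1% of all genes. Cdkn2b, 1 of the 4 that rose, reached the filter value of 1 in all 3 postnatal but not in all 3 E19 libraries. Its values were 1.32, 1.48 and 2.29 scaled CPM after birth, against 0.921, 1.04 and 0.432 at E19, so the filter favoured a rise. With a filter value of 5 it was not tested, and 3 genes of the list rose and 5 fell. With CPM of all reads 5 fell and 1 rose (median -0.94). Igf2bp3, an RNA-binding protein of fetal tissues, fell by 2.39 ± 0.21, and so did Ldha and Slc16a1, of lactate metabolism (-2.16 ± 0.11 and -1.71 ± 0.12). Pdgfra, a receptor of mesenchymal cells, rose by 1.26 ± 0.15. In the same libraries the summed level of 8 mesenchymal markers, Pdgfra among them, was 6929 to 12281 scaled CPM after birth and 1753 to 2601 at E19, with none at 0; its part in the rise of Pdgfra was not tested. Hk1, a low-Km hexokinase that Dnmt3a silences in mouse beta cells, was chosen after its values were seen and rose by 0.77 ± 0.20, a call that ended with CPM of all reads (0.43; adjusted p = 0.158). Its relative Hk2, chosen likewise, fell by 1.37 ± 0.22. Cdkn2a is not analysed here.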
